A study of Mus musculus with 9 samples.

Results

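The choroid plexus genes described here are 10 genes that mark the epithelium of the choroid plexus: Ttr, Kl, Folr1, Prlr, Aqp1, Kcne2, Kcnj13, Clic6, Slc4a5 and Slc13a4. They were taken by symbol from the 26602 genes with a count in midbrain libraries, and all 10 were among the 18127 genes whose counts summed to 10 or more and that were compared between genotypes. They were chosen by their counts in these same libraries, which were known when the list was drawn up, so their levels and fold changes are a description, and where calls of the fit across all genes are counted for them, the counts describe the same values and are not a test. The libraries came from midbrain tissue including the substantia nigra of mice 3 to 4 months of age, 4 of them DJ-1+/+ (wild type) and 5 DJ-1-/-, with 1 library per mouse. DJ-1, encoded by Park7, is a redox-sensitive protein whose loss causes a recessive form of Parkinson's disease, and the study asked what its loss changes in this brain region. The DJ-1-/- mice were homozygous for a targeted allele carried by all cells, backcrossed to C57BL/6, and both genotypes were bred from heterozygous parents and shared cages. The sex of the mice was not given in the sources used here. Each library was a 3′ mRNA library in which fragments near the polyadenylated end are read and copies of a molecule are counted once, so a count does not grow with transcript length.

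The choroid plexus is a sheet of epithelium over a vascular stroma that hangs into the ventricles of the brain, including the fourth ventricle and the roof of the third ventricle, which lie close to the midbrain. Its epithelial cells secrete cerebrospinal fluid by moving sodium, chloride, bicarbonate and water from blood to ventricle, and they carry hormones and vitamins the same way. It is no part of the midbrain tissue itself, and how much of it is carried along depends on where a block of tissue is cut. In bulk tissue, fewer epithelial cells and less RNA per cell cannot be told apart.

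The genotype labels were checked with Park7, with 132, 105, 113 and 118 counts in DJ-1+/+ mice (here and below in the order of the replicate number) and 23, 29, 14, 19 and 19 counts in DJ-1-/- replicates 1 to 5. Totals were 841974 to 886085 counts per library in DJ-1+/+ and 967751 to 1098125 in DJ-1-/- mice, so every DJ-1-/- library was deeper. At these totals 3 counts, taken as the lowest level that can be shown, are 2.73 to 3.56 cpm (counts per 1000000 counts of the library), a limit set by counting error alone. Xist, the RNA of the silenced X chromosome, was counted 160 and 146 times in DJ-1+/+ replicates 2 and 3, and 0 and 1 times in replicates 1 and 4. In DJ-1-/- mice Xist had 148 to 193 counts in replicates 1 to 4 and 2 in replicate 5. The Y-linked gene Ddx3y was counted 121 and 113 times in DJ-1+/+ replicates 1 and 4, 152 times in DJ-1-/- replicate 5, and 0 to 4 times in the other libraries. DJ-1+/+ replicate 4 stood apart in the choroid plexus genes, and fold changes of these genes and of the lists it moves are given with and without it.

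Promoter sequence is shown for 3 of the genes, as the stretch of 250 bases before the start site. The table of RefSeq windows used here (GRCm38.p6) matched 7 of the 10 genes, with 10 windows in all, and Ttr, Folr1 and Clic6 were not matched in it. The 3 shown belong to genes whose counts were highest in the same library, and they differ in base composition. Capitals mark a TATAAA motif, which lay 29 bases before the start of Kcnj13. The Kcnj13 window (chr1:87394730-87394979, minus strand) lies in an intron of Gigyf2, a gene on the other strand, and has 45.2% G and C. The windows of Kl (chr5:150952357-150952606, plus strand, 66.8% G and C) and Aqp1 (chr6:55336049-55336298, plus strand, 62.0% G and C) overlap no annotated gene.
Kcnj13: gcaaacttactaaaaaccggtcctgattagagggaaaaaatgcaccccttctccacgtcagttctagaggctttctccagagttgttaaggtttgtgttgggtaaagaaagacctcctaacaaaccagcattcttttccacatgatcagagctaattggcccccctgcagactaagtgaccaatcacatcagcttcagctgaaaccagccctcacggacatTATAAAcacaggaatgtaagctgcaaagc
Kl: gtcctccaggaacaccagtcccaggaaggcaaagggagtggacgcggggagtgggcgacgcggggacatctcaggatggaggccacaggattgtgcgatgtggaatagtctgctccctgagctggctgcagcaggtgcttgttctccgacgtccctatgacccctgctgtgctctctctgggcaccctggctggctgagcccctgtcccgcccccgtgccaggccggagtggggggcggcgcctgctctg
Aqp1: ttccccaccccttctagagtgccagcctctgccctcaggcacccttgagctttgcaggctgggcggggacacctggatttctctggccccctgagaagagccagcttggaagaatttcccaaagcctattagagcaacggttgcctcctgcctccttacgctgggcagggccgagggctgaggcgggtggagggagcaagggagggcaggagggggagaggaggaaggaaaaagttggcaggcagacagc

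The windows were searched on both strands for TAATCC, the core of OTX sites, TGTTTAC, a forkhead core, TATAAA, the TATA box, and CACGTG, an E-box. Each motif was counted on its own, and the matches found did not overlap one another. Besides Kcnj13, the search found the reverse of the TATA box, TTTATA, 127 bases before a start of Slc4a5, and TGTTTAC 215 bases before a second start of Prlr. The Slc4a5 window lies wholly within the annotated gene, and 103 of its bases overlap an exon of Slc4a5. No window of the 7 genes held TAATCC or CACGTG, which says only that these letters are not in these stretches. Over all 32851 windows of the same length, 6.25% held TAATCC, 3.17% TGTTTAC, 12.4% TATAAA and 6.02% CACGTG. A match is a description of the letters and not of a bound site.

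Together the 10 genes were counted 719 times in DJ-1+/+ replicate 4 and 298, 177 and 160 times in replicates 1, 2 and 3. In DJ-1-/- replicates 1 to 5 they had 179, 333, 240, 151 and 175 counts. DJ-1+/+ replicate 4 thus held 29.6% of the 2432 counts of these genes, and 10.4% of the counts of all genes. Per library total, the summed level was 811 cpm in DJ-1+/+ replicate 4, with an exact 95% Poisson interval of 753 to 873 cpm. The next highest library was DJ-1+/+ replicate 1 at 354 cpm (315 to 396), followed by DJ-1-/- replicate 2 at 303 cpm (272 to 338) and DJ-1-/- replicate 3 at 248 cpm (217 to 281). The other 5 libraries lay between 156 and 201 cpm. In this order the interval of DJ-1+/+ replicate 4 was clear of the next, while every other pair of neighbours had intervals that overlapped. The intervals cover counting error only. DJ-1+/+ replicates 2 and 3, at 201 and 186 cpm, lay within the range of the DJ-1-/- mice, so the genotypes overlapped.

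**Figure D1:**
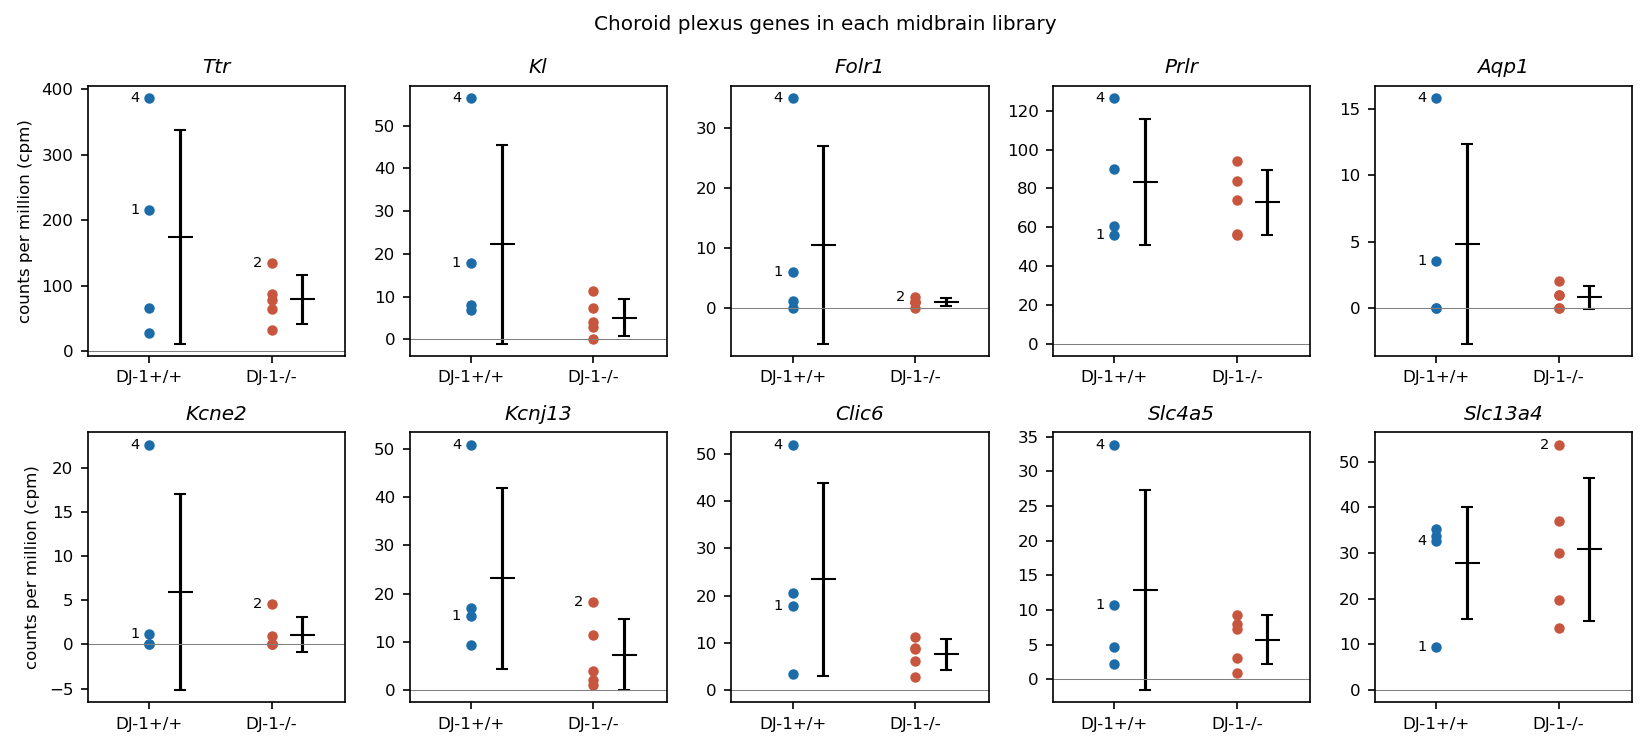
Level of each of the 10 genes in cpm (vertical axis, linear, a separate scale for each gene) in each library, by genotype. Points are libraries, the bar to their right is the mean and SD (n = 4 DJ-1+/+ and n = 5 DJ-1-/-), and figures beside points give the replicate number of DJ-1+/+ replicates 1 and 4 and of DJ-1-/- replicate 2 where it is the highest of its genotype. DJ-1+/+ replicate 4 is the highest point for 9 of the 10 genes, the exception being Slc13a4.

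Ttr and Kl encode proteins that the epithelium releases or sheds. Ttr, on chromosome 18 from 20665280 to 20674321 (GENCODE M21, GRCm38, plus strand), encodes transthyretin, which carries thyroxine and retinol-binding protein in blood and cerebrospinal fluid. Ttr was counted 182, 25, 57 and 342 times in DJ-1+/+ replicates 1 to 4, and 65, 147, 75, 31 and 89 counts in DJ-1-/- replicates 1 to 5. The lowest and the highest of the 9 libraries were both DJ-1+/+, so the DJ-1-/- mice lay inside the DJ-1+/+ range. In cpm, the mean level of Ttr was 174 ± 163 for DJ-1+/+ (SD, n = 4) and 79.0 ± 37.0 for DJ-1-/- libraries (SD, n = 5). The log2 fold change of Ttr, DJ-1-/- against DJ-1+/+, was -1.12 (standard error 0.50), and without DJ-1+/+ replicate 4 it was -0.36 (standard error 0.44).

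Kl, on chromosome 5 from 150952607 to 150993817 (plus strand), encodes klotho, a membrane protein that is shed into cerebrospinal fluid and acts with FGF receptors as the receptor of FGF23. Kl had 15, 7, 6 and 50 counts in DJ-1+/+ and 4, 8, 11, 0 and 3 counts in DJ-1-/- mice. DJ-1+/+ replicate 4 held 48.1% of all Kl counts and was 3.17 times as high in cpm as the next library. Kl had a log2 fold change of -2.10 (standard error 0.66), and -1.07 (standard error 0.61) without that library.

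Folr1 and Prlr encode receptors. Folr1, on chromosome 7 from 101858331 to 101870788 (minus strand), encodes the folate receptor that carries folate across the epithelium into cerebrospinal fluid. Folr1 had 5, 0, 1 and 31 counts in DJ-1+/+ and 1, 2, 1, 1 and 0 counts in DJ-1-/- mice. Only DJ-1+/+ replicates 1 and 4 were above 3 counts, and replicate 4 held 73.8% of all Folr1 counts. The log2 fold change of Folr1 was -3.27 (standard error 1.03) and moved to -1.14 (standard error 0.98) without DJ-1+/+ replicate 4. Folr1 overlaps Anapc15 on the other strand, and the strand setting of the counting was not given in the sources used here.

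Prlr, on chromosome 15 from 10177238 to 10349180 (plus strand), encodes the prolactin receptor, which binds prolactin. Prlr had 47, 79, 52 and 112 counts in DJ-1+/+ and 56, 81, 91, 81 and 58 counts in DJ-1-/- mice. Although DJ-1+/+ replicate 4 was again the highest, it was only 1.35 times as high in cpm as the next library, DJ-1-/- replicate 3, and DJ-1+/+ replicate 1 was among the lowest. The log2 fold change of Prlr was -0.20 (standard error 0.21), and 0.08 (standard error 0.19) without DJ-1+/+ replicate 4. Prlr overlaps Gm21973 on the same strand, so reads of the pair may not be separable.

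Aqp1, Kcne2, Kcnj13 and Clic6 serve the passage of water and ions. Aqp1, on chromosome 6 from 55336432 to 55348555 (plus strand), encodes the water channel of the ventricular face of the epithelium. Aqp1 had 3, 0, 0 and 14 counts in DJ-1+/+ and 1, 0, 1, 2 and 0 counts in DJ-1-/- mice. DJ-1+/+ replicate 4 was the only library above 3 counts. Aqp1 had a log2 fold change of -2.44 (standard error 1.08), and -0.49 (standard error 1.22) without DJ-1+/+ replicate 4. With 0 to 3 counts in each of the other 8 libraries, Aqp1 was there at or under the lowest level that can be shown.

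Kcne2, on chromosome 16 from 92292389 to 92298129 (plus strand), encodes an accessory subunit of potassium channels. Kcne2 had 1, 0, 0 and 20 counts in DJ-1+/+ and 1, 5, 0, 0 and 0 counts in DJ-1-/- mice. Its 2 libraries above 3 counts, DJ-1+/+ replicate 4 and DJ-1-/- replicate 2, had different genotypes. The log2 fold change of Kcne2 was -2.24 (standard error 1.19) with all libraries and 1.33 (standard error 1.5) without DJ-1+/+ replicate 4, so its direction turned with that library.

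Kcnj13, on chromosome 1 from 87386363 to 87394729 (minus strand), encodes the inward rectifier potassium channel Kir7.1. Kcnj13 had 13, 15, 8 and 45 counts in DJ-1+/+ and 4, 20, 11, 2 and 1 counts in DJ-1-/- mice. DJ-1+/+ replicate 4 was 2.79 times as high in cpm as DJ-1-/- replicate 2, the second highest, while DJ-1-/- replicates 4 and 5 were at or under 3 counts. Kcnj13 had a log2 fold change of -1.63 (standard error 0.59), and -0.90 (standard error 0.59) without DJ-1+/+ replicate 4. Kcnj13 lies within Gigyf2 on the opposite strand, and Gigyf2, with 108 to 123 counts in DJ-1+/+ and 114 to 147 in DJ-1-/- mice, had a log2 fold change of -0.06.

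Clic6, on chromosome 16 from 92485736 to 92541243 (plus strand), belongs to the chloride intracellular channel family. Clic6 had 15, 18, 3 and 46 counts in DJ-1+/+ and 9, 3, 11, 6 and 9 counts in DJ-1-/- mice. DJ-1+/+ replicate 3 and DJ-1-/- replicate 2 shared the lowest count, and the genotypes overlapped. Clic6 had a log2 fold change of -1.62 (standard error 0.53), and -0.87 (standard error 0.49) without DJ-1+/+ replicate 4. Clic6 overlaps 2410124H12Rik on the same strand. Clic6 and Kcne2 are neighbours on chromosome 16, 187607 bases apart with 4 protein-coding genes between them, of which Smim11 and Rcan1 each had a log2 fold change of 0.13 and were highest in DJ-1-/- libraries.

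Slc4a5 and Slc13a4 encode transporters of solutes. Slc4a5, on chromosome 6 from 83219828 to 83304945 (plus strand), encodes a sodium bicarbonate cotransporter of the ventricular face. Slc4a5 had 9, 2, 4 and 30 counts in DJ-1+/+ and 8, 8, 3, 9 and 1 counts in DJ-1-/- mice. Apart from DJ-1+/+ replicate 4, which was 3.17 times as high in cpm as the next library, the genotypes covered much the same range. Slc4a5 had a log2 fold change of -1.16 (standard error 0.64), and -0.03 (standard error 0.62) without that library.

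Slc13a4, on chromosome 6 from 35267957 to 35308131 (minus strand), encodes a sodium sulfate cotransporter that is known from meningeal fibroblasts as well as from the choroid plexus. Slc13a4 had 8, 31, 29 and 29 counts in DJ-1+/+ and 30, 59, 36, 19 and 14 counts in DJ-1-/- mice. It was the one gene of the 10 that was not highest in DJ-1+/+ replicate 4: the highest library was DJ-1-/- replicate 2 and the lowest DJ-1+/+ replicate 1, which was second in 5 of the others. The log2 fold change of Slc13a4 was 0.15 (standard error 0.37). It turned negative, to -0.13 and -0.15, when DJ-1+/+ replicate 1 or DJ-1-/- replicate 2 was left out.

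**Figure D2:**
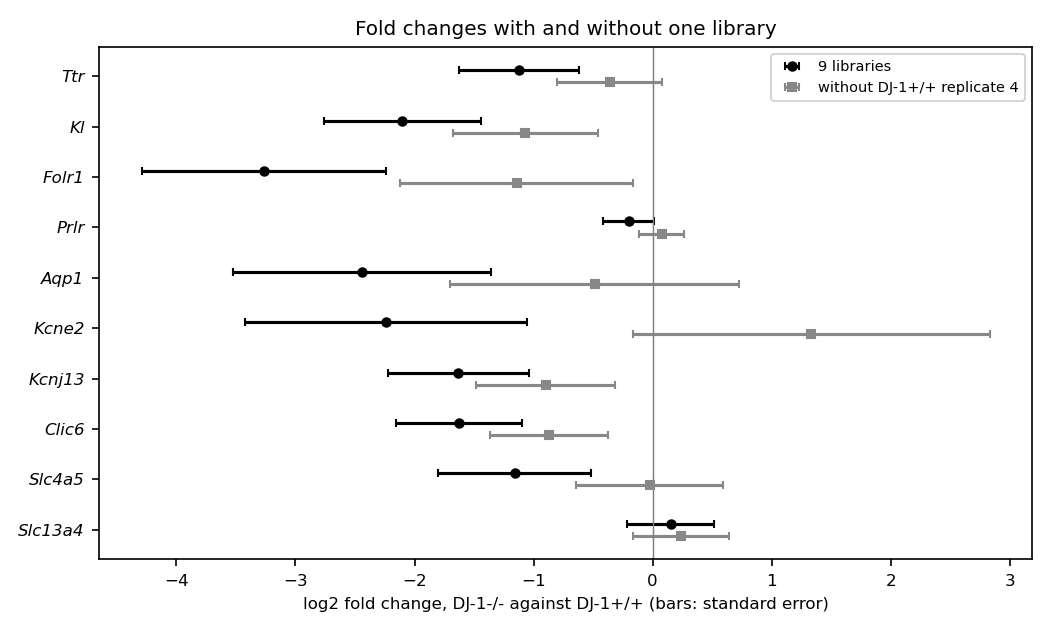
Log2 fold change of each gene, DJ-1-/- against DJ-1+/+ (horizontal axis), from edgeR's quasi-likelihood fit, with all 9 libraries (circles) and without DJ-1+/+ replicate 4 (squares). Bars are standard errors. All circles but that of Slc13a4 lie below 0, with a median of -1.63, and the squares have a median of -0.42, with those of Prlr, Kcne2 and Slc13a4 above 0.

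Across the 10 genes, 9 had a negative log2 fold change, against 48.1% of all genes tested, and their median was -1.63, against 0.01 for all genes tested. A log2 fold change below -1 was found for 8 of the 10 and for 1.78% of all genes. By edgeR's quasi-likelihood test and by DESeq2, none of the 10 had an adjusted p below 0.05, against 0.00552% of all genes, which is Park7 alone. At an unadjusted p under 0.05, edgeR gave 6 of the 10, all lower in DJ-1-/- mice, against 1.26% of all genes lower at that level. DESeq2 gave 3 of the 10, against 235 of all genes tested. The 6 given by edgeR were Ttr, Kl, Folr1, Aqp1, Kcnj13 and Clic6. These counts describe the values by which the genes were chosen, so nothing was read from them. Without DJ-1+/+ replicate 4, 7 of the 10 were negative, against 48.0% of all genes. In that fit 0 of the 10 had an unadjusted p under 0.05, against 591 of all genes tested. With no filter on low counts, 5 of the 10 passed an adjusted p of 0.05 in edgeR, against 36 of all genes. Those 5, namely Ttr, Kl, Folr1, Kcnj13 and Clic6, had nearly unchanged fold changes and smaller standard errors, such as 0.19 for Ttr. For none of the 10 did the genotypes separate without overlap, which was found for 1.25% of all genes.

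DJ-1+/+ replicate 4 was the highest of the 9 libraries for 9 of the 10 genes and for 10.9% of all genes. It was at least 2 times as high as every other library for 7 of them, Kl, Folr1, Aqp1, Kcne2, Kcnj13, Clic6 and Slc4a5, and for 0.43% of all genes. Its share of a gene's counts ran from 11.4% for Slc13a4 and 17.0% for Prlr to 73.8% for Folr1 and 74.1% for Kcne2. Leaving out both DJ-1+/+ replicates 1 and 4, a comparison chosen after the data were seen, turned the log2 fold changes of Ttr, Folr1 and Slc4a5 to 0.76, 0.67 and 0.71, and the median of the 8 genes with a fold change was -0.10. DJ-1+/+ replicates 1 and 4 were also the DJ-1+/+ libraries with Y-linked counts. DJ-1-/- replicate 5, which had such counts too, had 171 cpm of the 10 genes. Among the 6 libraries with Xist counts, 3 of 8 genes were negative and the median was 0.03. With Xist as a covariate over all 9 libraries, all 10 genes were negative and the median was -1.20. The part of sex in these levels was not tested.

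The 10 genes did not keep one ratio to each other from library to library. Ttr made up 61.1% of their summed count in DJ-1+/+ replicate 1 (Wilson 95% interval 55.4% to 66.4%) and 14.1% in DJ-1+/+ replicate 2 (9.75% to 20.02%), and the intervals do not overlap. In DJ-1+/+ replicate 4 the share of Ttr was 47.6% (43.9% to 51.2%). Prlr ran the other way, from 15.6% (13.1% to 18.4%) in DJ-1+/+ replicate 4 to 53.6% (45.7% to 61.4%) in DJ-1-/- replicate 4. Slc13a4 made up 2.68% in DJ-1+/+ replicate 1 (1.37% to 5.21%) and 18.1% in DJ-1+/+ replicate 3 (12.9% to 24.8%). The 2 lowest shares of Prlr and of Slc13a4 were those in DJ-1+/+ replicates 1 and 4, where the summed level of the 10 genes was highest. A gene that rises less than the sum must lose share there, and in cpm Prlr was itself highest in DJ-1+/+ replicate 4. Kl, Folr1, Aqp1 and Kcne2 had their highest shares in DJ-1+/+ replicate 4, at 6.95%, 4.31%, 1.95% and 2.78%, while Kcnj13 and Clic6 had theirs in DJ-1+/+ replicate 2, at 8.47% and 10.2%, and Slc4a5 in DJ-1-/- replicate 4, at 5.96%. By genotype, the share of Ttr was 39.6% ± 19.9 for DJ-1+/+ (SD, n = 4) and 36.6% ± 11.7 for DJ-1-/- libraries (SD, n = 5), which differ by less than the spread between replicates. The share of Kl was 4.92% ± 1.47 and 2.19% ± 1.64, and that of Kcnj13 6.02% ± 1.81 and 2.94% ± 2.28, in the same order, and these means lie farther apart than the SD of either genotype. For both genes the shares of single libraries overlapped between genotypes. The genes were chosen by these counts, and a share also moves with the counts of the other genes, so no genotype difference was read from the shares.

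**Figure D3:**
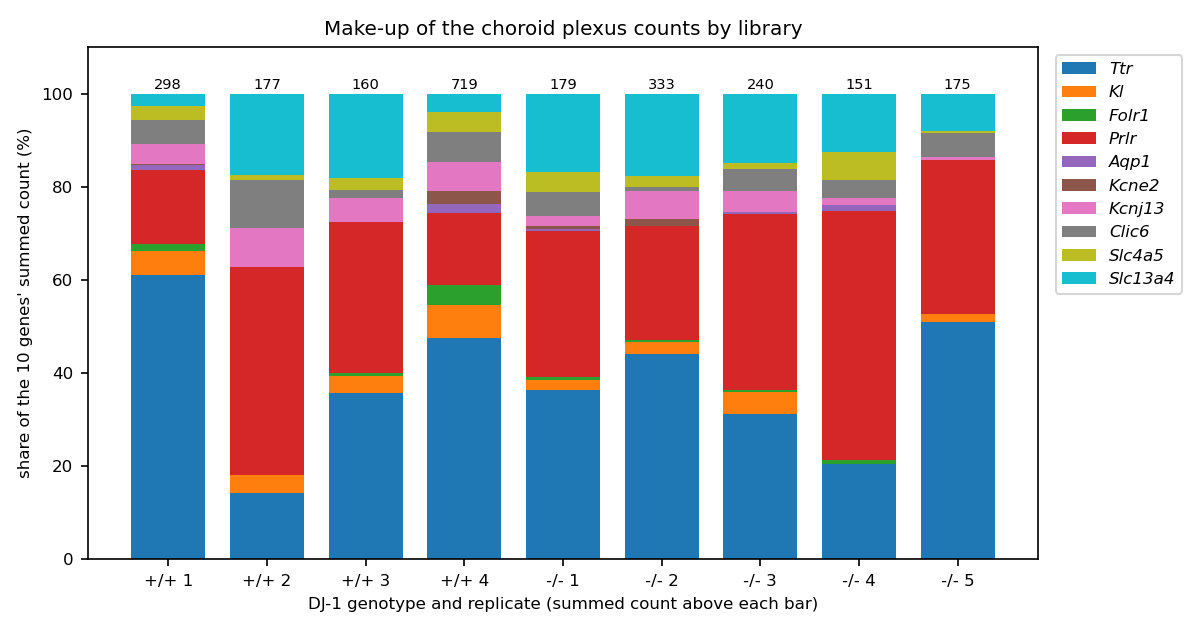
Make-up of the summed count of the 10 genes in each library (horizontal axis, genotype and replicate), as the share of each gene in percent (vertical axis, from 0). The number above each bar is the summed count. Ttr takes 61.1% of the bar of DJ-1+/+ replicate 1 and 14.1% of that of DJ-1+/+ replicate 2, and Prlr 53.6% of that of DJ-1-/- replicate 4.

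Likeness between genes was described by Pearson's r of log2(cpm + 1) over the 9 libraries, points which share each library's dissection and depth. With the mean of the other 9 genes, r was 0.94 for Folr1, 0.87 for Kcne2, 0.79 for Kl, 0.78 for Kcnj13 and for Aqp1, 0.77 for Ttr and for Slc4a5, 0.60 for Clic6, 0.57 for Prlr and 0.09 for Slc13a4. Without DJ-1+/+ replicates 1 and 4, the libraries farthest from the median, r over the remaining 7 fell to 0.20 for Ttr, -0.23 for Aqp1 and -0.39 for Clic6, stayed at 0.70 for Kcnj13, and was 0.95 for Slc13a4. The likeness of most of the genes thus rested on those libraries. Among 14059 other genes with at least 50 counts, the 10 most like the mean of all 10 genes over the 9 libraries were Cldn2 (r = 0.92), Srp54c (0.92), Lbp (0.91), 2900040C04Rik (0.90), Vta1 (0.89), Rbm47 (0.89), F5 (0.89), C330018D20Rik (0.88), Wac (0.88) and Ace (0.87). Over the remaining 7 libraries, r was between -0.22 for F5 and 0.76 for Ace. The gene 2900040C04Rik had 64 counts in DJ-1+/+ replicate 4 and 0 to 3 in each other library.

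Slc13a4 was most like other genes, found after its values were seen. Over the 9 libraries its r was 0.95 with Trmt5 and with Npr3 and 0.94 with Saxo2, the 3 highest. With 9 of the 10 fibroblast markers r ran from 0.16 for Col3a1 to 0.71 for Col1a1, both collagen genes. With Slc22a8, an organic anion transporter of the choroid plexus, it was 0.64. No other choroid plexus gene was picked out for this reading. Slc22a8 itself had r = -0.53 with the mean of the 10 genes, so it does not stand for choroid plexus genes in general.

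A further 29 genes known from the choroid plexus epithelium were read in the same fit. Of the 28 with a count, 26 were tested, and 24 had a negative log2 fold change, with a median of -0.72. Without DJ-1+/+ replicate 4, 16 were negative and the median was -0.07. At an unadjusted p under 0.05 edgeR gave 5 and DESeq2 4, all 5 lower in DJ-1-/- mice, against 1.26% of all genes, and neither gave any at an adjusted p under 0.05. Those 5 were Cldn2, which encodes a claudin of leaky epithelia, with -2.26, F5, which encodes coagulation factor V, with -2.18, the transporter gene Abca4 with -1.55, Tmem72 with -1.46, and 1500015O10Rik, which encodes the secreted peptide precursor ECRG4, with -1.25. Without DJ-1+/+ replicate 4, 0 of the 26 reached that level, against 591 of all genes tested. DJ-1+/+ replicate 4 was the highest library for 19 of the 26, against 10.9% of all genes, and at least 2 times as high as every other for 10, against 0.43%.

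The genes of this second list differed in how far they went with the 10. F5 had 10, 5, 2 and 66 counts in DJ-1+/+ and 4 to 6 counts in every DJ-1-/- library. Steap1 had 0, 0, 1 and 19 counts in DJ-1+/+ and 1 or 2 in each DJ-1-/- library. Both stood high in DJ-1+/+ replicate 4 alone. Otx2, a transcription factor that the epithelium needs, had 40, 20, 9 and 72 counts in DJ-1+/+ and 9, 21, 35, 27 and 71 in DJ-1-/- mice, where replicate 5 came next after DJ-1+/+ replicate 4. Enpp2, which encodes the secreted enzyme autotaxin and is also expressed by oligodendrocytes, had 166 to 294 counts and a log2 fold change of -0.13 (standard error 0.12). Htr2c, a serotonin receptor gene also expressed by neurons, had 98 to 134 counts and a log2 fold change of -0.05 (standard error 0.09). Slc22a8 had 37 counts in DJ-1+/+ replicate 4 and 36 in replicate 1, the 2 lowest levels of the 9 libraries, where the 10 genes were highest.

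**Figure D4:**
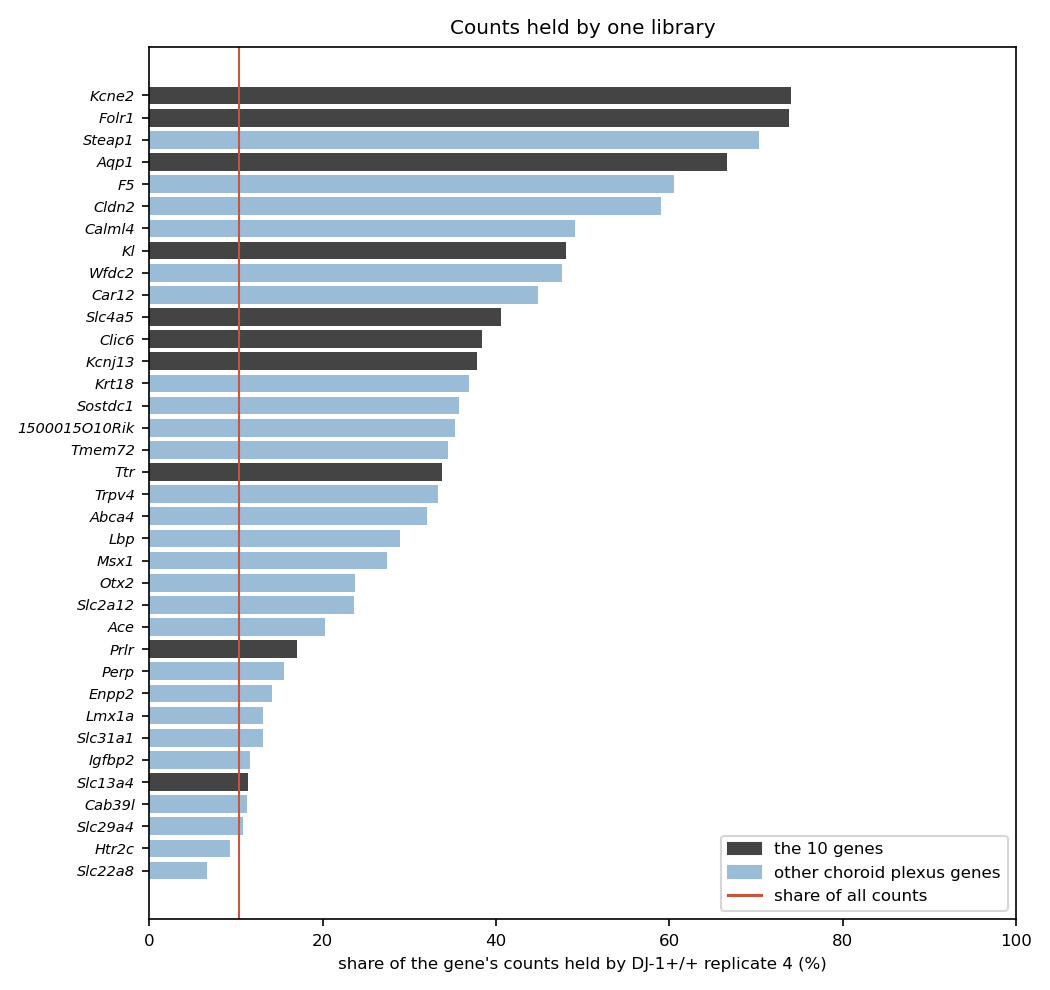
Share of each gene's counts over the 9 libraries that DJ-1+/+ replicate 4 held (horizontal axis, percent, from 0), for the 10 genes (dark) and the 26 other choroid plexus genes tested (light), sorted. The line marks the share of all counts in that library, 10.4%. Kcne2 at 74.1% and Folr1 at 73.8% are the highest bars, and Slc13a4 at 11.4% lies near the line.

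The partners of the 10 genes, meaning ligands, coreceptors, other carriers of the same solutes and signalling proteins, were read in the same fit. Of 38 such genes 35 were tested, of which 14 had a positive and 21 a negative log2 fold change, with a median of -0.03. The extremes were -1.13 for Stra6, a receptor of retinol-binding protein, and 0.17 for Stat5a, both with few counts. Stra6 had 2, 4, 1 and 7 counts in DJ-1+/+ and 0, 4, 3, 0 and 2 in DJ-1-/- mice, so it too was highest in DJ-1+/+ replicate 4. Stat5a had 1 to 9 counts in each library. Among the 35 partner genes edgeR gave 0 at an unadjusted p under 0.05 and 0 at an adjusted one, while DESeq2 gave 1 and 0. Of all genes tested, edgeR gave 513 and DESeq2 235 at an unadjusted p under 0.05. For klotho, the receptor genes Fgfr1, Fgfr2 and Fgfr3 had log2 fold changes of -0.10, -0.03 and -0.04, and Fgf23 had no count in any library. For transthyretin, Rbp4, which encodes retinol-binding protein, had 36 counts in DJ-1+/+ replicate 2 and 7 in replicate 4, with a log2 fold change of -0.11. For folate, the proton-coupled transporter gene Slc46a1 had 24 to 36 counts in each library and a log2 fold change of -0.17. For bicarbonate and sodium, Slc12a2, which encodes the cotransporter NKCC1, had 121 to 171 counts and a log2 fold change of 0.02, and Slc4a10 had 0.03. For sulfate, Slc26a1 had 7 to 12 counts and a log2 fold change of -0.08.

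For the prolactin receptor, the kinase gene Jak2 and the transcription factor gene Stat5b had log2 fold changes of -0.05 and -0.08. Prl, the ligand, had 2, 0, 155 and 11 counts in DJ-1+/+ and 189, 35, 0, 12 and 2 counts in DJ-1-/- mice. Gh, the growth hormone gene of the pituitary, read after Prl had been seen, had 5, 0, 118 and 18 counts in DJ-1+/+ and 173, 31, 1, 2 and 14 in DJ-1-/- mice. Prl and Gh were high in the same libraries, 1 of each genotype, and Prlr had 52 and 56 counts there, among its lowest.

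Markers of other cells and regions were summed in each library beside the choroid plexus genes. Ependymal cells line the ventricles next to the choroid plexus. The sum of their 9 markers was highest in DJ-1+/+ replicate 4, at 222 cpm, with ranges of 96.6 to 222 in DJ-1+/+ and 105 to 188 in DJ-1-/- mice. That library was the highest for only 3 of the 9 markers, against 10.9% of all genes. It was at least 2 times as high as every other for 0 of them, against 0.43%. Foxj1, the regulator of motile cilia, had 51 counts there and 21 to 63 in the other libraries. The 10 fibroblast markers went the other way, with their lowest sum, 255 cpm, in DJ-1+/+ replicate 4, and ranges of 255 to 463 in DJ-1+/+ and 283 to 464 in DJ-1-/- mice. Without that library, the ependymal markers with a negative log2 fold change went from 4 of 9 to 0 and their median from 0.13 to 0.41, and the negative fibroblast markers went from 6 of 10 to 9 and their median from -0.03 to -0.15. The 6 endothelial markers (398 to 457 and 374 to 450 cpm) and the 6 microglial markers (456 to 488 and 445 to 499 cpm) varied little, and the 5 blood markers ran from 432 to 664 and from 382 to 525 cpm.

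Markers of neurons from other regions set DJ-1+/+ replicate 1 apart in the cerebellar list and DJ-1+/+ replicate 4 apart in the forebrain list. The 6 cerebellar markers summed to 683 cpm in DJ-1+/+ replicate 1 and 64.0 to 113 cpm in the others, with 102 counts of Gabra6 there and 0 to 2 elsewhere. The 7 forebrain markers were lowest in DJ-1+/+ replicate 4, at 100.4 cpm, against 213 to 234 cpm in the other DJ-1+/+ and 184 to 276 cpm in DJ-1-/- mice. The 8 markers of dopaminergic neurons, which belong to the midbrain itself, were also lowest in DJ-1+/+ replicate 4, at 409 cpm. DJ-1+/+ replicate 3 came next at 483 cpm. The ranges were 409 to 874 cpm in DJ-1+/+ and 656 to 891 cpm in DJ-1-/- mice. En1, a transcription factor gene of these neurons, had 9 counts in DJ-1+/+ replicate 4 and 49 to 104 in the other libraries, and Th, which encodes tyrosine hydroxylase, had 30 and 37 to 119. All 8 had a positive log2 fold change, with a median of 0.34, and 4 of them, Th, Slc6a3, Pitx3 and Ret, had an unadjusted p under 0.05, against 2.83% of all genes in either direction, and none an adjusted one. Without DJ-1+/+ replicate 4, 1 of the 8, Slc18a2, was negative, the median was 0.20, and 0 had an unadjusted p under 0.05. Of the 5 forebrain markers tested, 1 was negative with that library and 3 without it, with medians of 0.28 and -0.03. The part of the cut of the tissue in the levels of the 10 genes was not tested.

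**Figure D5:**
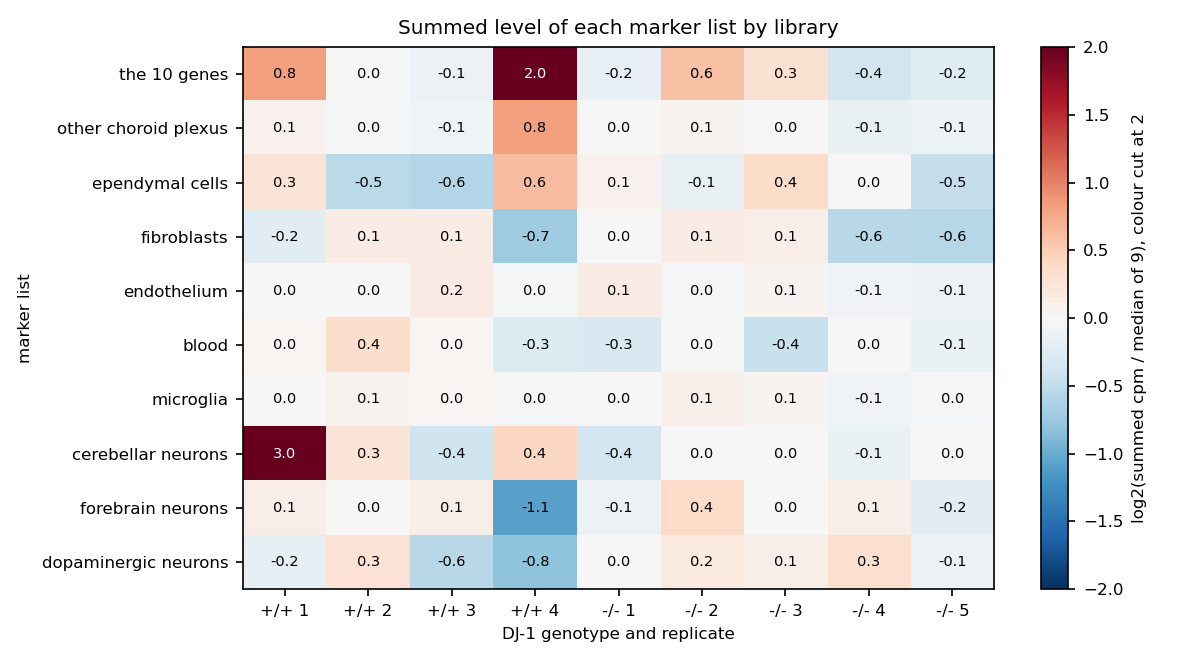
Summed cpm of each marker list (rows) in each library (columns, genotype and replicate) as log2 of its ratio to the median of the 9 libraries, printed in each cell and shown by colour, which is cut at 2. The 10 genes reach 2.0 in DJ-1+/+ replicate 4, the cerebellar markers 3.0 in DJ-1+/+ replicate 1, and the forebrain markers -1.1 in DJ-1+/+ replicate 4.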

How the data were processed

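Midbrain 3′ mRNA libraries (QuantSeq FWD) with unique molecular identifiers came from 4 DJ-1+/+ and 5 DJ-1-/- mice. The authors deposited the count of molecules per gene and library as whole numbers without normalization, made, per the submitters' processing notes, with fastp 0.20.0, STAR 2.7.3a, featureCounts 2.0.0 and UMI-tools 1.0.0 on GRCm38. The strand setting was not given in the sources used here. Counts were joined by Ensembl identifier, a gene not listed in a library was given 0 counts, and symbols and positions are those of GENCODE M21 (26570 of 26602 identifiers matched).

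Genes whose counts summed to 10 or more were fitted with edgeR 4.0.16 (glmQLFit and glmQLFTest, TMM, genotype as the only term) in R 4.3.3, with Benjamini-Hochberg adjustment over all 18127 genes. The standard error is the log2 fold change divided by the square root of F. Levels are cpm by library total, and likeness used log2(cpm + 1). Single libraries left out, DESeq2 1.42.0, other normalizations and filters, thinned counts, Xist as a covariate and a replicate block were the alternatives. In simulated counts edgeR recovered 190 of 200 changed genes among 17825 and DESeq2 185. The changes, of 1.5 in log2 up or down, were planted only in genes with higher counts, and every gene had the same dispersion. The recovery therefore does not carry over to genes with few counts, such as Folr1, Aqp1 and Kcne2, or with a wide spread between replicates.

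Members and lists were chosen with earlier results of these data known. The genes named are the 10 members, the listed other choroid plexus genes, partners and cell markers, the 10 genes most like the members, Park7, Xist and Ddx3y, and any other gene was named after its values were seen. Pairs of libraries of one genotype differed by more than sampling noise (chi-square per degree of freedom 1.07 to 2.27 over 16 pairs). Each mouse is a separate animal, and same-numbered libraries were not treated as pairs.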

Additional observations from a re-analysis of the deposited data

Results flagged for a closer look

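Each gene and marker list was examined for a library far from the others of its genotype, by the gap to its nearest neighbour over the group's range. Of 66 groups examined 12 stood out in this way. A rate of 1 in 20 would give 3.3, but the 12 cannot be weighed against that rate. The genes and lists were chosen with these data known, some genes were also part of a summed list, and some had few counts. The flags are therefore a description and not a test.

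Among the 10 genes, Folr1 (35.0 cpm) and Kcne2 (22.6 cpm) stood out in DJ-1+/+ replicate 4, Kcne2 in DJ-1-/- replicate 2 (4.55 cpm), and Slc13a4 in DJ-1+/+ replicate 1, where it was low (9.50 cpm). The summed other choroid plexus genes (1534 cpm) and F5 (74.5 cpm) stood out in DJ-1+/+ replicate 4 as well, and Htr2c was high in DJ-1-/- replicate 5 (131 cpm).

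Among the marker lists, the forebrain sum was low in DJ-1+/+ replicate 4 (100.4 cpm), the cerebellar sum was high in DJ-1+/+ replicate 1 (683 cpm), and the endothelial sum was high in DJ-1+/+ replicate 3 (457 cpm). In DJ-1-/- replicate 5 Xist was low (1.95 cpm) and Ddx3y high (148 cpm).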

How the results depend on the processing

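Of 183 pairs of a member and an alternative, 165 kept their direction and side of the threshold, 13 turned and 5 became calls. Over the fits that omit 1 library each, the members' median log2 fold change ran from -1.94 to -0.42 (the last without DJ-1+/+ replicate 4). Members with an unadjusted p under 0.05 ran from 0 to 8, other choroid plexus genes from 0 to 11 and partner genes from 0 to 2. All tested genes at that level ran from 348 to 736, and at an adjusted p under 0.05 from 1 to 2. The median of the other choroid plexus genes ran from -0.92 to -0.075. With no filter on low counts, 5 members, 3 other choroid plexus genes and 36 of all genes had an adjusted p under 0.05, and 10 other choroid plexus genes and 802 of all genes an unadjusted one. DESeq2 gave 3 members, 235 of all genes and 1 partner gene at an unadjusted p under 0.05. RLE size factors, library totals, thinned counts and a minimum of 50 counts gave 1 partner gene each. In the same order they gave 536, 519, 516 and 389 of all genes at that level. That minimum left out Folr1, Aqp1 and Kcne2. With Xist as a covariate, 2 members and 0 other choroid plexus genes had an unadjusted p under 0.05, against 446 of all genes. In that fit 10 members were negative with a median of -1.20, 23 other choroid plexus genes were negative with a median of -0.38, and Slc13a4 was at -0.16.

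Over the same fits Slc13a4 ran from -0.15 (without DJ-1-/- replicate 2) to 0.33 and was at -0.13 without DJ-1+/+ replicate 1, while Prlr ran from -0.35 to 0.077 and Kcne2 from -3.99 to 1.33, both highest without DJ-1+/+ replicate 4. Both of the next alternatives were chosen after seeing the data. With DJ-1+/+ replicates 1 and 4 left out, 5 members were negative with a median of -0.10, and 0 had an unadjusted p under 0.05, against 488 of all genes. Ttr, Folr1, Slc4a5 and Slc13a4 were at 0.76, 0.67, 0.71 and -0.15, while 10 other choroid plexus genes were negative, with a median of 0.082 and 1 at that level. In the 6 libraries with Xist counts the values were 3, 0.033 and 0 for members and 10, 0.14 and 1 for other choroid plexus genes. There 533 of all genes had an unadjusted p under 0.05 and 3 an adjusted one. Ttr, Folr1, Prlr and Slc4a5 were at 0.72, 0.96, 0.027 and 0.98. Of the 10 most alike genes, 0 were shared without the 2 libraries farthest from the median, 0 by Spearman's rho and 8 with a pseudocount of 5. The causes were not tested.

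Same-numbered libraries of the genotypes correlated in their deviations at 0.25, 0.02, -0.09 and -0.13. Differently numbered libraries were not set beside them, so these values cannot decide whether the numbers pair the mice. With a replicate block, 9 members were negative with a median of -1.36, and 4 had an unadjusted p under 0.05, against 571 of all genes. In that fit 8 of all genes had an adjusted p under 0.05. Aqp1, Folr1 and Kcne2 are limited by depth, with at most 5 counts in any library but DJ-1+/+ replicate 4.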
